A study of Mus musculus with 6 samples.

Results

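The 10 genes described here belong to the Wnt/β-catenin pathway and were measured in fetal mouse kidneys labelled SRM deletion mutant or wild type. The SRM is the motif of the zinc finger protein Sall1 that recruits the NuRD chromatin remodelling complex. The 10 genes are the antagonists Dkk1, Shisa3 and Nkd1, the targets Axin2, Lgr5 and Ccnd1, the β-catenin partners Lef1 and Tcf7, and the upstream activators Rspo1 and Wnt9b. All 10 listed genes were found by symbol among the 11578 genes of the deposited table. Their mutant and wild type values were known when they were chosen, so these values are given as a description, without a test. The study compared 3 libraries of kidneys labelled SRM deletion mutant, numbers 328, 336 and 342, with 3 of kidneys labelled Sall1 wild type, numbers 330, 331 and 337. All were fresh kidneys grown in utero, and the labels give their stage as E17 in one field and E17.5 in another. Zygosity, strain, litter and the mutation's design beyond the deleted motif are not described in the labels, nor is whether kidneys of a genotype came from separate embryos, so the spread between libraries may be in part technical.

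Canonical Wnt signalling works through β-catenin, which a cytoplasmic destruction complex removes until a Wnt ligand binds a Frizzled receptor and an Lrp5 or Lrp6 co-receptor. Stabilized β-catenin then enters the nucleus and activates genes together with DNA-binding proteins of the TCF/LEF family, and several of the activated genes encode inhibitors of the pathway. In the mouse kidney, Wnt9b from the ureteric epithelium acts on the surrounding nephron progenitors, sustaining some and inducing others to form nephrons. R-spondins amplify the signal by protecting Frizzled receptors from removal.

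The promoters of Dkk1 and Shisa3, which had lower signal in mutants, are shown beside those of the feedback inhibitors Nkd1 and Axin2, which had higher mean signal there. The sequences are RefSeq promoters on GRCm38.p6 that run from 250 bases before to 50 bases after an annotated start, and capitals mark the letters CTTTGA of the core TCF/LEF motif, or TCAAAG where it lies on the other strand. The Dkk1 window is chr19:30549447-30549746 on the minus strand, Shisa3 chr5:67607633-67607932 on the plus strand, Nkd1 chr8:88527383-88527682 on the plus strand and Axin2 chr11:108920099-108920398 on the plus strand.
Dkk1: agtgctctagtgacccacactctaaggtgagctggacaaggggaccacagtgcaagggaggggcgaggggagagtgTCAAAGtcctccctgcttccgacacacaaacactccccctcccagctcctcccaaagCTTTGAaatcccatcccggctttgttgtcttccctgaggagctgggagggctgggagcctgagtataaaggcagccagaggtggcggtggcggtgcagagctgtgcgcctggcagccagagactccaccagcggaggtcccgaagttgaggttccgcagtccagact
Shisa3: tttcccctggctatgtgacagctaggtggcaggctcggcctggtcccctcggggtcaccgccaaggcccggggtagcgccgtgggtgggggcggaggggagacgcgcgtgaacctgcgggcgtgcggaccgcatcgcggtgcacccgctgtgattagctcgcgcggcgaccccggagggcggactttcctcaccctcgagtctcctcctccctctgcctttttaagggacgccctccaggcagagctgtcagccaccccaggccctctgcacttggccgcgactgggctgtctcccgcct
Nkd1: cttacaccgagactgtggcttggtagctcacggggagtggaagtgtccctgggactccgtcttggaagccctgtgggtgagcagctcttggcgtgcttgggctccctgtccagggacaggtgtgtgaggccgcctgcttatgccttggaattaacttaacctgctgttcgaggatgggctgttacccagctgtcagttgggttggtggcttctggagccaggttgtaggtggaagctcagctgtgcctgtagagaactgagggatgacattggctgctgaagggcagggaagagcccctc
Axin2: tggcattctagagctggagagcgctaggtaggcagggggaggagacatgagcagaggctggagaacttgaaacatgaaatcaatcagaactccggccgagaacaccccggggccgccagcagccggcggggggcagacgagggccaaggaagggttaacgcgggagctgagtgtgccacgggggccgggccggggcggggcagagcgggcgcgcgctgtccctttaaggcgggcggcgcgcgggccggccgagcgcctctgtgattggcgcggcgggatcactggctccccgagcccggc
The Dkk1 window held CTTTGA 2 times, on the reverse strand from position -174 and on the forward strand from -117 relative to the start. The GENCODE M21 annotation starts Dkk1 at 30549665 on the minus strand, which lies inside this window, upstream of the RefSeq start. By that annotation the match from -117 lies within the gene and the match from -174 reaches the gene's start. The windows of Shisa3, Nkd1 and Axin2 held none. That of Nkd1 lies inside the gene, which the GENCODE M21 annotation starts at 88521354, so the bases around that start were not searched. Of the 10 genes, all but Lgr5 and Ccnd1 had at least 1 promoter in the RefSeq table, with 12 windows in all, and 2 of the 12 (16.7%) held CTTTGA on either strand, namely that of Dkk1 and 1 of 4 for Lef1. Among 11136 windows of genes in the expression table the share was 11.6%, and among all 32851 it was 16.0%. The Lef1 window with CTTTGA, from 131156044 on chromosome 3, lies inside the gene, which the same annotation starts at 131110471. The longer form CTTTGAT, which contains the shorter one, was in 0 of the 12 and in 2.50% of windows of genes in the table. No other form of the motif was searched for. A match of letters in such a short window is a description and says nothing of binding.

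Genotype was not the main division among the libraries, and this touches every comparison here. Wild types 331 and 337 stood apart from the other 4 libraries on the first principal component, which held 60.0% of the variance, and wild type 330 lay with the mutants. For 7926 of the 11578 genes (68.5%) wild type 330 was the wild type library nearest to the mutant mean. That held for 7 of the 10 Wnt genes, all but Lgr5, Ccnd1 and Wnt9b. Transcript GC content moved with the same division. Across 11518 annotated genes, the correlation of GC content with a library's deviation from the gene mean was 0.292 to 0.639 in the 3 mutants and 0.470 in wild type 330, but -0.625 and -0.522 in wild types 331 and 337. Genes of one library share its preparation, so these correlations only describe the libraries. The values carry a scaling by the authors to totals of 555147910 to 559251769 per library, and the spacing of the values put depth at 1 to an estimated 4.34 times that of the shallowest library, wild type 337. Mutant 336 and wild types 331 and 337 formed the class of lower depth.

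Of the 10 genes, 4 had all 3 mutant values below all 3 wild type values. Dkk1, Lgr5 and Shisa3 showed the largest differences, with mutant means at 0.283, 0.344 and 0.467 of the wild type means, and Tcf7 a smaller one at 0.699. Rspo1 and Nkd1 had all mutant values above all wild type values. The groups overlapped for Axin2, Lef1, Ccnd1 and Wnt9b. Of all 11578 genes, 19.5% had groups that did not overlap, 8.42% with mutants below and 11.1% with mutants above. In a limma fit over all genes 2 of the 10, Dkk1 and Shisa3, were past a Benjamini-Hochberg adjusted p of 0.05, where 0.285% of all genes were, 0.199% higher and 0.0864% lower. The number was 5 of the 10 (2 higher, 3 lower) without wild type 330, where 26.7% of all genes were past it, and also 5 with array weights, where 30.2% were. As the 10 were chosen with this contrast known, nothing is read from these counts.

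**Figure D1:**
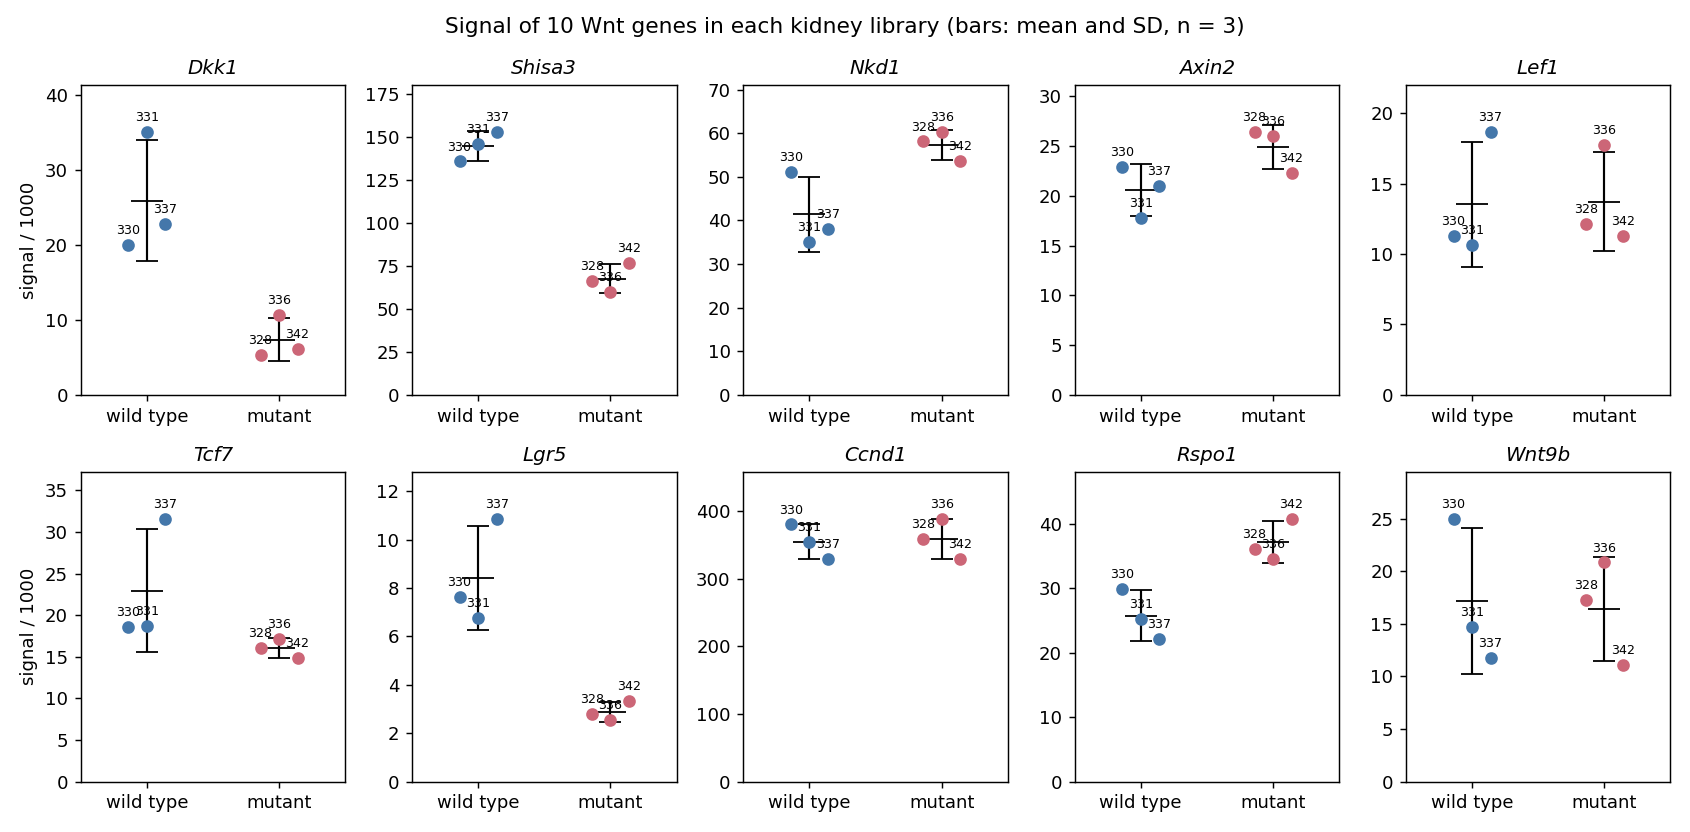
Signal divided by 1000 (vertical axes, from 0) of each of the 10 genes in the 3 wild type (blue) and 3 mutant (red) libraries, labelled by library number, with the mean and SD of each genotype (n = 3). Mutant points of Dkk1, Shisa3, Lgr5 and Tcf7 lie below all wild type points, those of Nkd1 and Rspo1 above, and the other 4 genes overlap.

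Among the antagonists, Dkk1 encodes a secreted protein that binds Lrp5 and Lrp6 and keeps them from the Wnt receptor complex. Its gene lies on chromosome 19 from 30545863 to 30549665 on the minus strand (GENCODE M21, GRCm38, also called mm10). Its signal was 5291, 10635 and 6116 in mutants 328, 336 and 342, against 19978, 35079 and 22813 in wild types 330, 331 and 337. Every mutant lay below every wild type, and within each genotype the highest library, mutant 336 or wild type 331, was of the lower depth class. The means were 7347 ± 2877 (SD, n = 3) in mutants against 25957 ± 8026 (SD, n = 3) in wild types, so the wild type mean was 3.53 times the mutant mean. The log2 difference, mutant minus wild type on log2(signal + 1), was -1.85 (SE 0.31). In whole kidneys, fewer cells that express a gene and less RNA per cell cannot be told apart, which holds for each gene described here.

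Shisa3 encodes a member of a family of transmembrane proteins, the first of which was found in Xenopus to hold immature Frizzled and FGF receptors in the endoplasmic reticulum. It lies on chromosome 5 from 67607882 to 67623552 on the plus strand. The signal was 66208, 59726 and 76839 in mutants 328, 336 and 342, against 135670, 145886 and 152651 in wild types 330, 331 and 337. The gap between the groups was wide against the spread within them, with 67591 ± 8640 (SD, n = 3) against 144736 ± 8549 (SD, n = 3). The log2 difference was -1.10 (SE 0.16). Wild type 330, which lay with the mutants over most genes, was also the lowest wild type here but remained far above them.

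Nkd1 encodes Naked cuticle 1, a protein that binds Dishevelled and dampens Wnt signalling, and is itself a target of the pathway. It differed the other way. The signal was 58128, 60230 and 53602 in mutants 328, 336 and 342, against 51177, 35083 and 38052 in wild types 330, 331 and 337. The lowest mutant and wild type 330 were close, while wild types 331 and 337 were well below. Means were 57320 ± 3387 (SD, n = 3) and 41437 ± 8564 (SD, n = 3), a difference of 0.49 in log2 (SE 0.19), or 0.65 (SE 0.16) without wild type 330. Nkd1 lies on chromosome 8 from 88521354 to 88594884, 432 kb from Sall1, the gene altered in the mutants.

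Axin2 encodes a scaffold of the β-catenin destruction complex that the pathway induces in many tissues, and it is widely used as a readout of canonical signalling. Its signal was 26390, 26005 and 22315 in mutants 328, 336 and 342, against 22927, 17793 and 20976 in wild types 330, 331 and 337. Mutant 342 fell below wild type 330, so the groups overlapped. The means were 24903 ± 2250 (SD, n = 3) and 20565 ± 2592 (SD, n = 3), a difference of 0.28 in log2 (SE 0.19) that was close to its own error. Ccnd1, cyclin D1, drives the G1 phase of the cell cycle and is a target of β-catenin in several cell types. Its signal was 358441, 388171 and 329376 in mutants 328, 336 and 342, against 380085, 354702 and 329156 in wild types 330, 331 and 337. The ranges were nearly the same, with a difference of 0.02 in log2 (SE 0.15). A small difference of either sign lies within that error.

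Lgr5 encodes a receptor for R-spondins, is a target of the pathway in the intestine, and marks early distal nephron cells that give rise to the thick ascending limb in the mouse. It lies on chromosome 10 from 115450311 to 115587780. Its signal was 2791, 2538 and 3348 in mutants 328, 336 and 342, against 7635, 6767 and 10849 in wild types 330, 331 and 337. The lowest wild type was above the highest mutant by more than the whole mutant range. Means were 2892 ± 414 (SD, n = 3) and 8417 ± 2150 (SD, n = 3), the wild type mean 2.91 times that of the mutants, and the log2 difference was -1.52 (SE 0.33). The mutant mean was below 3146, the lowest mean over the 6 libraries of any gene in the table. If the table was cut at a minimum mean, Lgr5 was kept only through its wild type values, and a gene this low in both genotypes would be missing.

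Lef1 and Tcf7 encode the closely related HMG-box proteins that carry β-catenin to DNA. Lef1 signal was 12135, 17756 and 11267 in mutants 328, 336 and 342, against 11292, 10677 and 18649 in wild types 330, 331 and 337. A single library of each genotype was high, mutant 336 or wild type 337, and the others were close together. Both high libraries were of the lower depth class, but so was wild type 331, which had the lowest value of the 6. The log2 difference was 0.04 (SE 0.28). Tcf7 signal was 16101, 17184 and 14838 in mutants 328, 336 and 342, against 18604, 18728 and 31555 in wild types 330, 331 and 337. The groups did not overlap, but wild types 330 and 331 were only just above mutant 336 and wild type 337 alone was far higher. The log2 difference was -0.47 (SE 0.24), and -0.22 without wild type 337.

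Of the inducers, Rspo1 encodes R-spondin 1, which nephron progenitors of the mouse express. Its signal was 36177, 34524 and 40762 in mutants 328, 336 and 342, against 29906, 25220 and 22126 in wild types 330, 331 and 337. The groups did not overlap, with means of 37154 ± 3232 (SD, n = 3) and 25751 ± 3917 (SD, n = 3) and a difference of 0.54 in log2 (SE 0.19). Rspo1 had the most GC-rich transcript of the 10, at 59.7%, and once the part of each library's values that followed transcript length and GC content had been removed, the difference was 0.10 (SE 0.15). Wnt9b encodes the inducing ligand of the ureteric epithelium. Its signal was 17257, 20834 and 11074 in mutants 328, 336 and 342, against 24969, 14690 and 11745 in wild types 330, 331 and 337. Both genotypes spread widely and their ranges overlapped, though wild type 330 lay above every mutant. The difference was -0.04 in log2 (SE 0.31). It was 0.27 (SE 0.27) without wild type 330 and -0.40 (SE 0.23) after removal of length and GC content, so no direction can be given.

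Per kilobase of the longest annotated transcript, Ccnd1 had by far the highest level, a mean signal of 95362 per kb over the 6 libraries, and its lowest library was above the highest of any other member. Shisa3 followed at 28235 per kb, Rspo1 at 17150, Nkd1 at 12100, Tcf7 at 7892, Dkk1 at 6861, Axin2 at 5337, Lef1 at 3914 and Wnt9b at 3710, and neighbours in this order from Shisa3 to Wnt9b overlapped in their range over libraries. Lgr5 was the lowest at 1200 per kb, its highest library below the lowest of Wnt9b. Although lower in mutants, Shisa3 still had at least 15885 per kb in every library, above the highest values per kb of Nkd1 and Dkk1, 14759 and 14454.

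GC content moved with the differences of the members, though not gene by gene. The 3 members with the largest negative differences, Dkk1, Lgr5 and Shisa3, had the lowest GC contents of the 10, at 45.9%, 47.1% and 48.5%. Across all 10 genes the correlation of GC content with the log2 difference was 0.853, where it was 0.625 across 11518 annotated genes. Wnt9b, second in GC content at 56.6%, was however at -0.04 (SE 0.31). Tcf7, with a GC content of 52.3%, was at -0.47 (SE 0.24), or -0.22 without wild type 337. Lef1 and Ccnd1, with 51.4% and 50.9%, were at 0.04 (SE 0.28) and 0.02 (SE 0.15). These are descriptions over genes that share the same 6 libraries, and the 10 were chosen with this contrast known. With length and GC content removed, the differences of Dkk1, Lgr5 and Shisa3 were -1.69 (SE 0.28), -1.43 (SE 0.31) and -1.09 (SE 0.13), near their values without the removal. The positive differences shrank more, to 0.28 (SE 0.13) for Nkd1 and 0.00 (SE 0.14) for Axin2, while Tcf7 stood at -0.63 (SE 0.23). With depth class as a covariate the differences were -1.61 (SE 0.24) for Dkk1, -1.54 (SE 0.36) for Lgr5, -1.12 (SE 0.16) for Shisa3 and 0.45 (SE 0.17) for Rspo1.

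**Figure D2:**
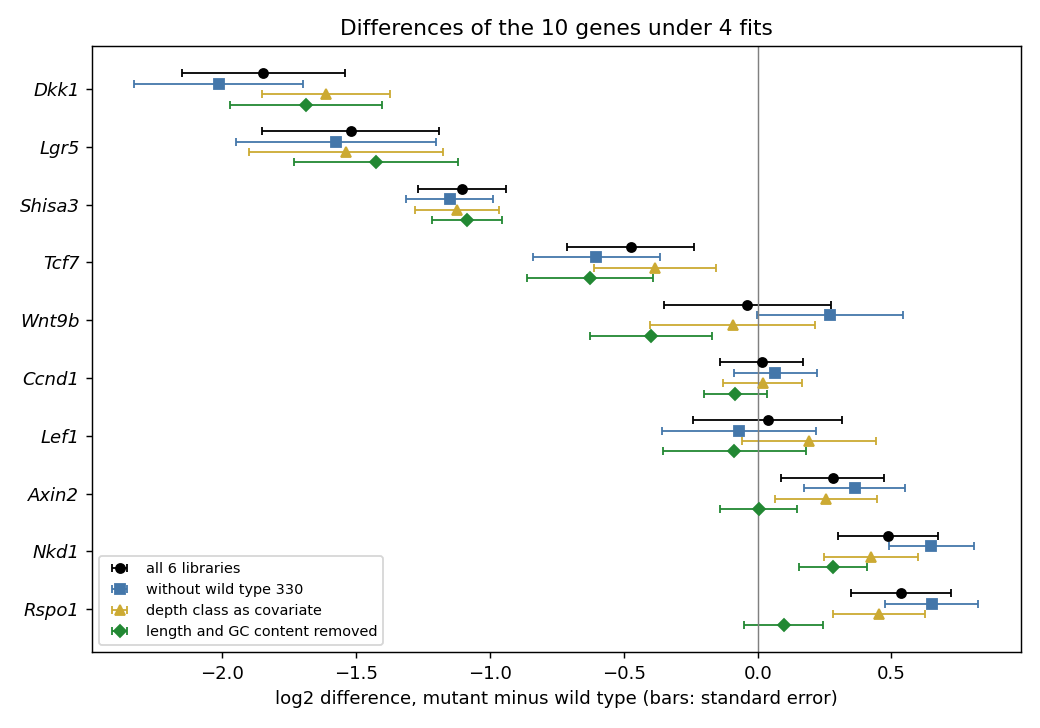
Log2 difference, mutant minus wild type, of each of the 10 genes (rows) in 4 fits, with bars of 1 standard error. Dkk1, Lgr5 and Shisa3 stay below -1 in each fit shown, while Rspo1 moves from 0.54 to 0.10 and Axin2 from 0.28 to 0.00 when length and GC content are removed.

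**Figure D3:**
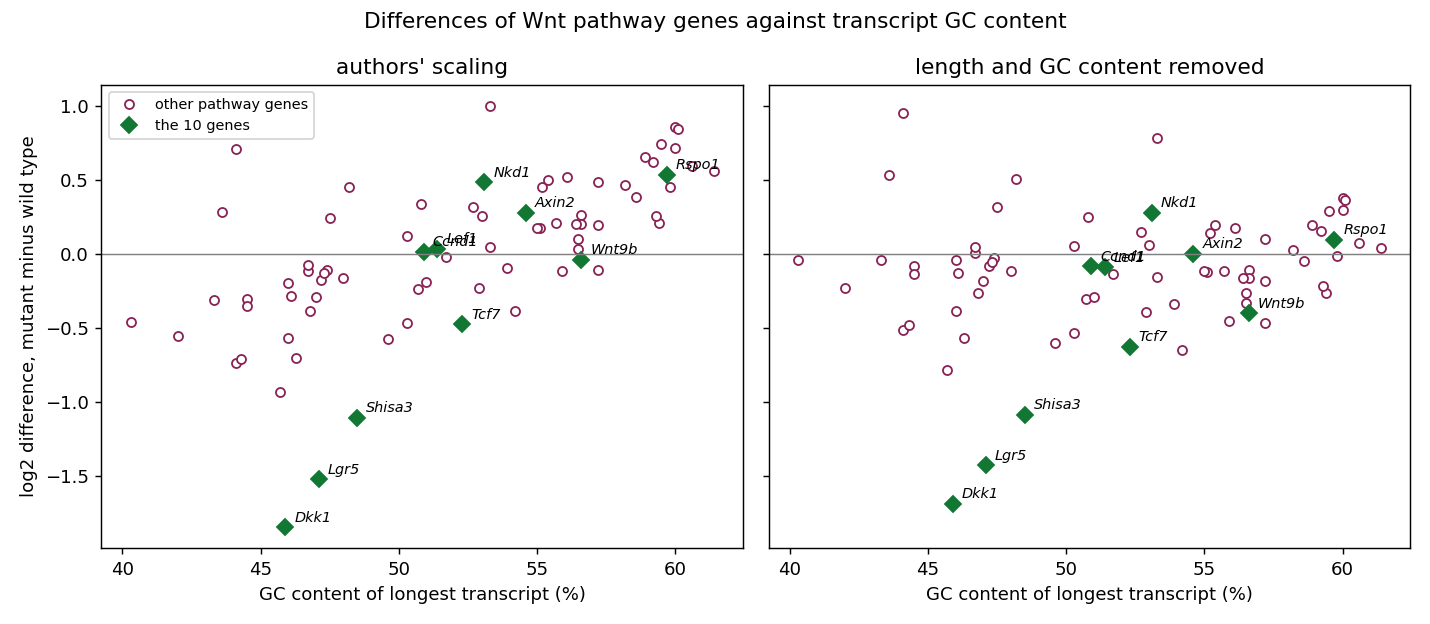
Log2 difference, mutant minus wild type, against the GC content of the longest transcript for the 10 genes (filled diamonds) and 66 other pathway genes (open circles), before (left) and after (right) removal of length and GC content. On the left the pathway genes slope upward with GC content, and on the right Dkk1, Lgr5 and Shisa3 lie below all other points.

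Beyond the 10, a list of 91 other pathway genes had 66 in the table. No pathway gene on it passed the test. In limma 0 of 66 had an adjusted p under 0.05, where 0.285% of all genes did, so the count is near that share. The lowest limma adjusted p was 0.211, for Wnt5b. An unadjusted p under 0.05 was reached by 18 (27.3%), 10 higher and 8 lower in mutants, against 19.0% of all genes. By the authors' deposited table, an unadjusted p under 0.05 was found for 11 of the 66 (16.7%), against 8.71% of all genes, and 0 passed after Benjamini-Hochberg adjustment. The median log2 difference of the list was 0.11 and that of all genes 0.02, and the list's median was -0.0939 once length and GC content had been removed. The groups did not overlap for 18 of the 66 (27.3%), against 19.5% of all genes. Mutants were above in 12 (18.2%) and below in 6 (9.09%), against 11.1% and 8.42% of all genes, so the share below was near that of all genes.

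Of the ligands 6 of 21 listed were in the table. Wnt5b, a ligand that mostly signals without β-catenin, had 21430 ± 929 (SD, n = 3) in mutants against 11976 ± 2586 (SD, n = 3) in wild types, a difference of 0.86 in log2 (SE 0.22, limma adjusted p = 0.211). Rspo3, an R-spondin made in the kidney stroma as well as in progenitors, had 6556 ± 471 (SD, n = 3) and 11063 ± 2102 (SD, n = 3), a difference of -0.74 in log2 (SE 0.26, limma adjusted p = 0.233). Rspo3 thus had mutants below where Rspo1 had mutants above. Neither was past the threshold over all genes, and the difference of Rspo1 was 0.10 (SE 0.15) with length and GC content removed. Wnt4, the most abundant ligand by signal, which drives the transition of induced progenitors into epithelium, was at -0.12 (SE 0.18, limma adjusted p = 0.723). Wls, needed for Wnt secretion, was at -0.55 (SE 0.23, limma adjusted p = 0.249) with overlapping groups.

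Of the receptors 17 of 19 were in the table, and 4 (23.5%) had groups that did not overlap, a share near the 19.5% of all genes. Lgr4, the most abundant of them by signal and like Lgr5 a receptor for R-spondins, had signals of 115428, 119201 and 93277 in mutants 328, 336 and 342, against 123867, 220982 and 200700 in wild types 330, 331 and 337. Wild type 330 was close to the mutants, and the log2 difference was -0.70 (SE 0.22, limma adjusted p = 0.231). Ror2, a receptor of Wnt5-type ligands, was at 0.65 (SE 0.21, limma adjusted p = 0.231). The Frizzled receptors Fzd2 and Fzd4 were at 0.26 (SE 0.16) and -0.29 (SE 0.19), and Fzd2 was at -0.11 after removal of length and GC content.

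Of the other extracellular and membrane antagonists 11 of 16 were in the table. Dkk2, the relative of Dkk1 that also binds Lrp5 and Lrp6, had signals of 14720, 21047 and 17949 in mutants 328, 336 and 342, against 23351, 44310 and 37306 in wild types 330, 331 and 337. Its log2 difference was -0.93 (SE 0.25, limma adjusted p = 0.231), the most negative of the 66, and the third family member measured, Dkk3, was at -0.19 (SE 0.20) with overlapping groups. Sostdc1, a secreted inhibitor of both Wnt and BMP signalling, was at -0.57 (SE 0.17, limma adjusted p = 0.231), and Frzb, a decoy for Wnt ligands, at -0.47 (SE 0.19, limma adjusted p = 0.249). Sfrp1, also a decoy and the most abundant of the group by signal, was on the other side at 0.34 (SE 0.16, limma adjusted p = 0.268). Mutant values of Dkk2, Sostdc1 and Frzb all lay below the wild types, as those of Dkk1 and Shisa3 did, but none of these 3 passed the test. They are 27.3% of the 11, where 8.42% of all genes had mutants below.

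Inside the cell, 16 cytoplasmic and 12 nuclear genes were all measured. β-catenin itself, Ctnnb1, was at 0.12 (SE 0.17, limma adjusted p = 0.682). Nkd2, the paralog of Nkd1, had signals of 11373, 14553 and 9943 in mutants 328, 336 and 342, against 8990, 6198 and 3681 in wild types 330, 331 and 337. Every mutant of Nkd2 lay above every wild type, as for Nkd1, with a difference of 1.001 in log2 (SE 0.34, limma adjusted p = 0.233). The same order held for Dvl1, a Dishevelled that relays the receptor signal, at 0.60 (SE 0.19), for the kinase Gsk3a of the destruction complex at 0.45 (SE 0.20) and for Btrc, which marks β-catenin for degradation, at 0.29 (SE 0.17). Their limma adjusted p values were 0.231, 0.256 and 0.342. Among nuclear factors it held for Aes, a short Groucho-type protein, at 0.72 (SE 0.22), for the co-activator Pygo2 at 0.47 (SE 0.19), and for the Groucho co-repressors Tle1 at 0.26 (SE 0.16) and Tle4 at 0.24 (SE 0.17), with limma adjusted p values of 0.231, 0.249, 0.372 and 0.400. All mutants were thus above in 4 of 16 cytoplasmic (25.0%) and 4 of 12 nuclear genes (33.3%), against 11.1% of all genes. For Gsk3a the lowest mutant, 336 at 60827, was only just above wild type 330 at 60177. Wild types 331 and 337 were at 39230 and 39256. Myc, the most abundant of the 3 listed targets in the table by signal, was at 0.05 (SE 0.18, limma adjusted p = 0.897).

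**Figure D4:**
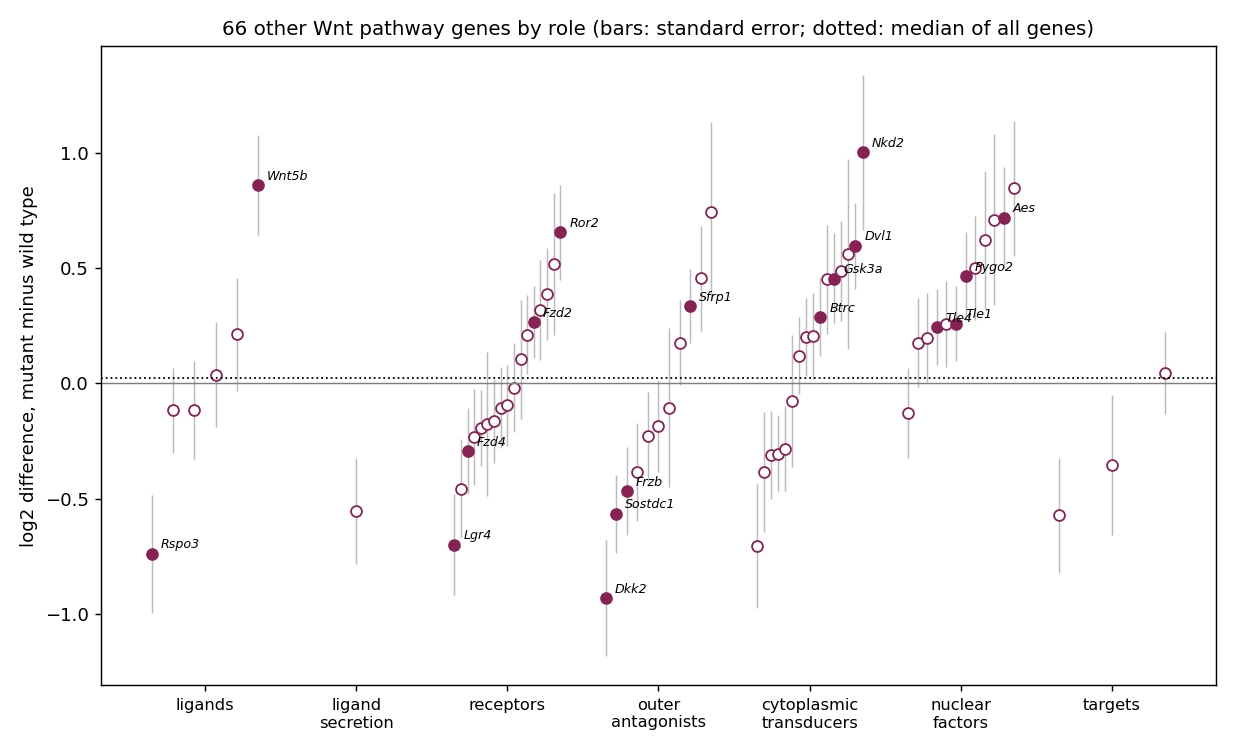
Log2 difference, mutant minus wild type, with standard error, of 66 other Wnt pathway genes grouped by role, where filled points are genes with no overlap between the 3 mutants and the 3 wild types and the dotted line is the median of all genes. No point passed the test over all genes, where 0.285% of all genes did, and Dkk2 at -0.93 and Nkd2 at 1.001 are the extremes.

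GC content moved with these pathway values too. Across the 66 genes its correlation with the log2 difference was 0.694, and of the 12 genes with all mutants above, 10 had a smaller difference after removal of length and GC content, their median going from 0.46 to 0.22. Dvl1, Pygo2, Gsk3a and Aes stood at 0.0785, 0.0308, -0.0135 and 0.30 after the removal, Ror2 at 0.20, Wnt5b at 0.38 and Nkd2 at 0.79. The median of the 6 with all mutants below was -0.63 before it and -0.52 after it. The number of pathway genes past the threshold depended on wild type 330. Without it 19 of the 66 passed in limma, 13 higher and 6 lower (28.8%), where 26.7% of all genes did. With array weights, which gave wild type 330 a weight of 0.298, 24 of the 66 did (36.4%), where 30.2% of all genes did. Mutant mean minus wild type 330 had a correlation with GC content of 0.104 across annotated genes, and wild type 330 minus the mean of wild types 331 and 337 one of 0.682.

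Markers of kidney cell types are given beside the Wnt genes. Their summed signal does not measure the size of a population. Genes of nephron progenitors, early nephrons, ureteric epithelium, podocytes, proximal tubule, loop of Henle and endothelium were all in the table, as were 7 of 8 stromal, 5 of 6 macrophage and 6 of 6 proliferation genes, and no marker in the table was at 0 in any library. None of 5 adrenal genes was in the table. The 8 nephron progenitor markers summed to 218551 to 238793 in mutants and 295695 to 327802 in wild types, beside lower Dkk1 and higher Rspo1. That lower sum lay mostly in Itga8, with means of 82907 in mutants and 123096 in wild types, and Cited1, with 8538 and 28876. A positive difference was found for 2 of the 8, Six2 and Meox1. All mutants of Meox1 lay above all wild types, at 0.23 (SE 0.20). Within that list only Cited1, a marker of uncommitted progenitors, passed the test, with a log2 change of -1.70 (SE 0.27, limma adjusted p = 0.0240), whereas the most abundant of the list by signal, Itga8 and then Six2, were at -0.58 (SE 0.21, limma adjusted p = 0.240) and 0.11 (SE 0.27), both with overlapping groups. Of the 6 loop of Henle markers, summed at 326042 to 375816 in mutants and 474696 to 516263 in wild types, beside the lower Lgr5, Kcnj1 fell by 1.24 on the log2 scale (SE 0.17, limma adjusted p = 0.0162) and the other 5 did not pass. The lower sum lay mostly in Slc12a1, the salt transporter of the thick ascending limb and the most abundant of the list, with 151490 ± 13095 (SD, n = 3) in mutants against 277856 ± 48572 (SD, n = 3) in wild types and a limma adjusted p of 0.0955. Umod was at 0.09 (SE 0.24), and 3 of the 6 markers had a positive difference. The test was passed by 1 of 8 progenitor and 1 of 6 loop of Henle genes, where 0.285% of all genes passed. A limma unadjusted p under 0.05, which 19.0% of all genes reached, was found for 3 of the 8 progenitor genes, all lower. It was found for 4 of the 6 loop of Henle genes, 3 lower and 1 higher.

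The 8 ureteric tip and trunk markers overlapped in summed signal, at 380313 to 480242 in mutants and 411643 to 467761 in wild types, as Wnt9b did, and so did the 8 early nephron markers, at 335376 to 367554 and 289400 to 376981. The 6 proliferation markers summed to 552601 to 612980 in mutants and 701280 to 982635 in wild types, beside a Ccnd1 signal that overlapped. That lower sum lay mostly in Mki67, at 216908 ± 7574 (SD, n = 3) against 359870 ± 109343 (SD, n = 3), and Top2a, at 192692 ± 15806 (SD, n = 3) against 301152 ± 51031 (SD, n = 3). The other 4 overlapped, and 2 of them had a positive difference. The 5 macrophage markers summed to 72952 to 78305 in mutants and 38691 to 46163 in wild types. Stromal, podocyte, proximal tubule and endothelial sums overlapped between the genotypes. In limma 0 genes of these 8 lists had an adjusted p under 0.05, where 0.285% of all genes did. At an unadjusted p under 0.05, which 19.0% of all genes reached, were 4 of 5 macrophage, 3 of 7 stromal, 2 of 6 proximal tubule and 1 of 6 podocyte genes, all higher in mutants. So were 2 of 8 ureteric and 2 of 6 proliferation genes, all lower, 2 of 8 early nephron genes, 1 in each direction, and 0 of 4 endothelial genes. The part of these cell types in the Wnt gene differences was not tested.

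The genes whose pattern over the 6 libraries was most like that of a member were found by Pearson correlation of log2(signal + 1), as a description, since with 6 libraries many genes correlate highly. For Dkk1 these were Ermp1, Wfdc15b and Capn6, with r of 0.995, 0.993 and 0.992, and 37 genes had an r over 0.95. For Shisa3 they were Pygl, Ncl and Gmnn, with r of 0.991, 0.989 and 0.986, and for Lgr5 Zfp280c, Gstt1 and Apom, with r of 0.991, 0.982 and 0.981. For Nkd1, Clcn2, Rasip1 and Pxn reached r of 0.998 each, among 446 genes over 0.95, the largest such number for any member. Its pattern, with wild type 330 next to the mutants, was thus shared by many genes, whereas only 6 genes came so close to Wnt9b, led by Pprc1, Cdcp1 and Nav2 at 0.983, 0.974 and 0.964. Axin2 was closest to Zfp335, Chp1 and Apbb3 (0.995, 0.992 and 0.992), and Rspo1 to Casp6, Map1lc3a and Rbm4 (0.990, 0.987 and 0.987). Lef1 was closest to Snx1, Krt10 and Tmem26 (0.993, 0.981 and 0.981), Tcf7 to Pla2g16, Intu and Cd9 (0.997, 0.996 and 0.991), and Ccnd1 to Nup210, Cd82 and Arhgap10 (0.989, 0.985 and 0.980).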

How the data were processed

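RNA came from 3 SRM deletion mutant and 3 wild type kidneys. Per the labels' protocols, poly(A) RNA was made into Ion Torrent libraries. The submitters' processing notes name the build mm10 and the tool bedtools. No source used here names the aligner, annotation or scaling, or says whether reads or bases were summed. The authors deposited 1 signal value per gene and library, rounded to whole numbers and scaled to nearly equal totals. Their table also holds a deposited ratio of mutant over wild type means, deposited log2 values and a deposited p-value for each gene. Depth in reads is unknown. It was compared between libraries from the spacing of values below 60000, whose largest step with values within 0.55 of a multiple was taken, and libraries with a step above 1 formed the lower depth class. Steps below 1 rest on a weaker periodicity (0.100 to 0.139, against 0.562 to 0.866). They also meet the tolerance of 0.55 whatever the values are, so the larger depths are uncertain.

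Mutant and wild type were compared for all 11578 genes on log2(signal + 1) by limma 3.58.1 (R 4.3.3, trend on mean level), with Benjamini-Hochberg adjustment over all genes and a threshold of 0.05. The design had allowed for counts, and its branch for scaled signal was used. A pseudocount understates differences of low genes, little so at these levels. The fit was tested on simulated data. The simulated noise was independent between genes and libraries, so the division among these libraries was not part of that test. Transcript length and GC content are those of the longest coding transcript in GENCODE M21 for 11518 genes, of which 567 were matched through a synonym. The groups share no library number. The members, lists and settings were chosen with earlier results of these data known. The text names all members, pathway genes whose groups do not overlap or that are most abundant in their role, markers past the threshold or among the 2 others most abundant in their list, and 3 genes most like each member. Dkk3, Meox1 and the neighbours of Sall1 fall outside that rule and were named after their values were seen.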

Additional observations from a re-analysis of the deposited data

How the results depend on the processing

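No paired analysis was possible because the groups share no library number. All genes called in limma numbered 33, and 2 to 3095 when 1 library was left out (the extremes without mutant 328 and without wild type 330), 3493 with array weights, 50 with length and GC content removed and 0 with the authors' p-values adjusted. Pathway genes called numbered 0, and 24 (14 higher, 10 lower) with array weights, where 30.2% of all genes were called and wild type 330 had a weight of 0.298. Leaving out 1 library gave 0 to 19 (0 to 13 higher, 0 to 6 lower), all from the fit without wild type 330. Quantile normalization, a pseudocount of 1000, a minimum mean of 10000, no trend and depth class as a covariate left it at 0. Over the alternatives the log2 difference ranged from -2.24 to -1.61 for Dkk1, -1.20 to -1.02 for Shisa3, -1.88 to -1.26 for Lgr5 (which the minimum mean removed), -0.63 to -0.22 for Tcf7, 0.28 to 0.65 for Nkd1, 0.0038 to 0.38 for Axin2 and 0.0969 to 0.65 for Rspo1, with the sign kept. Leaving out a library could not turn those whose groups do not overlap. The sign changed in 5, 3 and 3 of 13 alternatives for Lef1, Ccnd1 and Wnt9b. Of 22 named pathway genes, Fzd2 turned to -0.11, Gsk3a to -0.0135 and Myc to -0.15 with length and GC content removed, and Myc to -0.0554 with depth class. Leaving out 1 library, Wnt4 ranged from -0.24 to 0.0410, turning without wild type 330, and Myc from -0.0161 to 0.17, turning without mutant 342, wild type 331 or wild type 337. The cause was not tested. Depth in reads is unknown, so counting error is not separated from the spread.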

Other observations

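Nkd1 lies 432 kb from Sall1 on mouse chromosome 8, so the genes of the table within 1000 kb of Sall1 were listed with their values, a choice made after the Nkd1 value was seen. Besides Sall1 and Nkd1 these were Cnep1r1, Heatr3, Papd5, Adcy7, Brd7 and Cyld. The mutant and wild type values did not overlap for Nkd1, which prompted the listing, and overlapped for the other 7, where 19.5% of all genes did not overlap. Cyld, a deubiquitinase 275 kb from Sall1, had a log2 difference of -0.37 (SE 0.22), Brd7, a bromodomain protein, -0.21 (SE 0.19) and Heatr3 -0.50 (SE 0.22). Papd5, Adcy7 and Cnep1r1 were at 0.04 (SE 0.22), 0.13 (SE 0.30) and -0.30 (SE 0.22), and Sall1 itself was at -0.19 (SE 0.16). In limma 0 of the 8 had an adjusted p under 0.05, where 0.285% of all genes did. Without Nkd1 the lowest was 0.256 for Heatr3, the only one of the 7 at an unadjusted p under 0.05, which 19.0% of all genes reached.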
